A study of Mus musculus with 12 samples.

Results

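The 9 genes described here encode opioid and tachykinin peptides and their receptors, and they were followed through the striatum of hemiparkinsonian mice treated with L-DOPA. They were found by symbol in the deposited transcript table, which holds 189364 transcripts naming one of 52169 gene symbols. All 9 were present, with 79 transcripts among them, and each gene is reported by the transcript with the highest mean level over the 12 libraries. A read was counted on each transcript it overlaps, so agreement among the transcripts of a gene is no separate evidence. 4 genes encode peptide precursors (*Pdyn*, *Penk*, *Tac1* and *Pnoc*) and 5 encode receptors (*Oprm1*, *Oprd1*, *Oprk1*, *Oprl1* and *Tacr1*). All 9 passed the filter on low counts in every comparison.

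Female C57BL/6J mice received 6-OHDA (1 µl at 3 µg/µl) in the medial forebrain bundle of the right hemisphere, which kills the dopamine neurons projecting to that side, after desipramine (25 mg/kg) to spare noradrenergic neurons. After 2 weeks they were injected intraperitoneally with L-DOPA (10 mg/kg) plus benserazide (7.5 mg/kg), once (acute) or daily for 9 days (chronic), and killed 1 h after the last dose. RNA came from 3 striatal punches of 2 mm diameter, and there were 3 libraries each of the acute unlesioned, acute lesioned, chronic unlesioned and chronic lesioned striatum. Every group therefore had L-DOPA, the unlesioned striatum came from operated mice, and no saline group was sequenced, so that a difference between lesioned and unlesioned striatum holds the lesion and the response to L-DOPA together and these cannot be told apart. The acute and chronic groups were different mice, and by these schedules the chronic mice were killed later after the lesion. A difference between treatments also holds that time and the handling of separate mice, which cannot be told apart from repeated L-DOPA.

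Medium spiny neurons, the projection neurons of the striatum, release neuropeptides beside GABA. *Pdyn* encodes prodynorphin, the source of the dynorphins, which act mainly on the kappa receptor encoded by *Oprk1*. *Penk* encodes proenkephalin, whose enkephalins act on the delta receptor (*Oprd1*) and the mu receptor (*Oprm1*), and *Tac1* encodes the precursor of substance P, the ligand of the neurokinin receptor encoded by *Tacr1*. *Pnoc* encodes the precursor of nociceptin, the ligand of the receptor encoded by *Oprl1*. Dynorphin and substance P are classical products of the neurons of the direct pathway, which carry the dopamine D1 receptor, and enkephalin of those of the indirect pathway, which carry the D2 receptor. Opioid receptors couple to inhibitory G proteins, and the mu receptor is known for its density in the striosomes, patches of the striatum set apart from the surrounding matrix.

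The unit of level is CPM, the read count relative to the TMM-scaled library total. The totals were 87695043 to 173116525 counts per library, and 3 counts, the limit that a count of 0 allows, corresponded to 0.0171 to 0.0347 CPM, which covers counting error only. Tests are quasi-likelihood tests in edgeR, with p-values adjusted over all transcripts tested by the method of Benjamini and Hochberg, and a gene was called changed at an adjusted p under 0.05. Among markers of all spiny neurons, mean *Ppp1r1b* (the gene of DARPP-32) was at 440 to 566 CPM in the 4 groups. The summed level of 6 such markers was 1495 to 1801 CPM in the acute unlesioned and 1251 to 1387 CPM in the acute lesioned striatum, where 5 of the 6 fell, as did *Pdyn* and *Oprk1*. It was 1478 to 1611 CPM in the chronic unlesioned and 1096 to 1489 CPM in the chronic lesioned striatum, where 1 of the 6 fell. In replicate 2 of the chronic unlesioned group the summed level of 4 choroid plexus markers was 465 CPM, against at most 3.0 CPM in every other library. The summed level of 8 markers of cortical neurons was 2.15 to 3.02 CPM in replicates 2 and 3 of both lesioned groups and 5.85 to 43.4 CPM in the other libraries. Their part in the results was not tested beyond leaving out each library.

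Promoter sequences of 6 of the 9 genes matched the RefSeq table (build GRCm38.p6), which gives 250 bases before and 50 after a start site, 11 promoters in all. *Penk*, *Pnoc* and *Oprk1* had no entry. The windows were searched on both strands for TGACGTCA and TGACG (the full and the core site of the cAMP response element), for TGCGTCA and for TGANTCA, the AP-1 site with any middle base. The upstream bases of *Pdyn* and *Tac1* are shown because the mRNAs of these genes, both typical of direct pathway neurons, moved in opposite directions after acute L-DOPA (described with the levels). Capitals mark the matches, on either strand.
Pdyn, mm9 chr2:129525675-129525924, minus strand: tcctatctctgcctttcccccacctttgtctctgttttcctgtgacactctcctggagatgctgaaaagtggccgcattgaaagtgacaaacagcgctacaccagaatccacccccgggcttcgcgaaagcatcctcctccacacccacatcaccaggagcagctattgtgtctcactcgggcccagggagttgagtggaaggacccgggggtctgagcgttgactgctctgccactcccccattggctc
Tac1, mm9 chr6:7504811-7505060, plus strand: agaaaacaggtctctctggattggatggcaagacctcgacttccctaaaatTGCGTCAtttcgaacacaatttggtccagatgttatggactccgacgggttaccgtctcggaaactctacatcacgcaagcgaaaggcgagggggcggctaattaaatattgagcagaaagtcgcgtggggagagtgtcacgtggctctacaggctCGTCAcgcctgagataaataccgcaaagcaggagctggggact
The *Tac1* window held TGCGTCA, whose last 5 bases are also TGACG on the other strand, and a further TGACG on the other strand nearer the start site. *Tacr1* held TGACG once. The 4 patterns were not found in the windows of *Pdyn*, *Oprd1*, *Oprl1* and *Oprm1*, which says nothing of sites elsewhere. Over all 32851 promoters of the table, 1.79% held TGACGTCA, 20.8% TGACG, 2.12% TGCGTCA and 7.81% TGANTCA, so that a TGACG match is common. The mm9 positions come from an exact match of the sequence to that build, and the start site of the *Pdyn* window is the first base of the *Pdyn* transcript reported here.

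*Pdyn* lies on chromosome 2 from 129512301 to 129525674 on the minus strand of mm9 (AK133597, 4 exons). It was lower on the lesioned than on the unlesioned side after acute L-DOPA, and several-fold higher there after chronic L-DOPA. In the acute unlesioned striatum it was at 31.9, 28.5 and 31.7 CPM, and in the acute lesioned striatum at 17.4, 17.8 and 19.1 CPM. The chronic unlesioned libraries had 33.7, 24.8 and 39.3 CPM and the chronic lesioned libraries 194, 181 and 178 CPM. The acute lesioned libraries were thus all below, and the chronic lesioned libraries all above, every unlesioned library. The means were 30.7 ± 1.9 and 18.1 ± 0.89 CPM (SD, n = 3) after acute L-DOPA, and the log2 fold change was -0.76 (standard error 0.07, edgeR adjusted p = 1.35e-05). After chronic L-DOPA they were 32.6 ± 7.3 and 184 ± 8.1 CPM (SD, n = 3), and the log2 fold change was 2.50 (standard error 0.15, edgeR adjusted p = 1.77e-06). Within the lesioned striatum *Pdyn* was 10.2-fold higher after chronic than after acute L-DOPA (log2 fold change 3.35, standard error 0.08, edgeR adjusted p = 5.34e-09). Within the unlesioned striatum the chronic and acute libraries overlapped, with a log2 fold change of 0.09 (95% interval -0.20 to 0.37).

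The lesion effects on *Pdyn* differed between acute and chronic treatment by 3.26 on the log2 scale (standard error 0.17, edgeR adjusted p = 1.05e-07). Markers of D1 spiny neurons moved beside *Pdyn*, in part in another order. The summed level of 5 such markers (*Drd1a*, *Eya1*, *Isl1*, *Sfxn1*, *Chrm4*) was 113 to 121 CPM in the acute unlesioned and 31.3 to 39.7 CPM in the acute lesioned striatum, and all 5 fell. It was 111 to 121 CPM in the chronic unlesioned and 50.7 to 69.9 CPM in the chronic lesioned striatum, where 2 of the 5 fell. *Drd1a*, the gene of the dopamine D1 receptor, had means of 66.6 ± 3.5, 13.5 ± 2.0, 70.1 ± 5.4 and 28.0 ± 5.4 CPM (SD, n = 3) in the acute unlesioned, acute lesioned, chronic unlesioned and chronic lesioned striatum. The other marker called lower after chronic L-DOPA was *Chrm4*, and 4 of the 5 were lower at an unadjusted p under 0.05 in edgeR. *Eya1* and *Sfxn1* were not called, but their chronic lesioned libraries were all below the chronic unlesioned ones. Mean *Eya1* was at 0.854 CPM in the chronic lesioned and 1.29 CPM in the chronic unlesioned striatum, and mean *Sfxn1* at 9.84 and 11.8 CPM. *Isl1* was not lower, at 4.22 ± 0.45 CPM in the chronic lesioned and 3.86 ± 0.72 CPM in the chronic unlesioned striatum (SD, n = 3). Of 3 striosome markers (*Kremen1*, *Lypd1*, *Tshz1*), 2 were raised in the chronic lesioned striatum. Their summed level was 140 to 154 CPM in the chronic lesioned group and 33.0 to 47.6 CPM in the 9 other libraries, mostly through *Lypd1*, at 117 ± 4.2 against 15.4 ± 2.1 CPM in the chronic unlesioned striatum (SD, n = 3). Astrocyte markers summed to 131 to 147 CPM in the chronic unlesioned and 166 to 217 CPM in the chronic lesioned striatum, with 1 of 5 higher, and *Gfap* had means of 14.1 and 54.8 CPM. Of 4 markers of midbrain dopamine neurons, summed at 5.35 to 8.27 and 12.3 to 15.4 CPM, 3 were tested and 1 was higher. This was *Th* (tyrosine hydroxylase), with means of 1.84 and 9.63 CPM. Mean *Ddc* was at 3.39 and 2.99 CPM and mean *Slc18a2* at 1.20 and 1.31 CPM in the same order. *Slc6a3* (the dopamine transporter), at 0.0282 and 0.0527 CPM, was near the limit of 3 counts and was not tested. In punches of whole tissue, fewer cells of a type and less RNA per cell cannot be told apart, and the part of these markers in the *Pdyn* result was not tested.

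**Figure D1:**
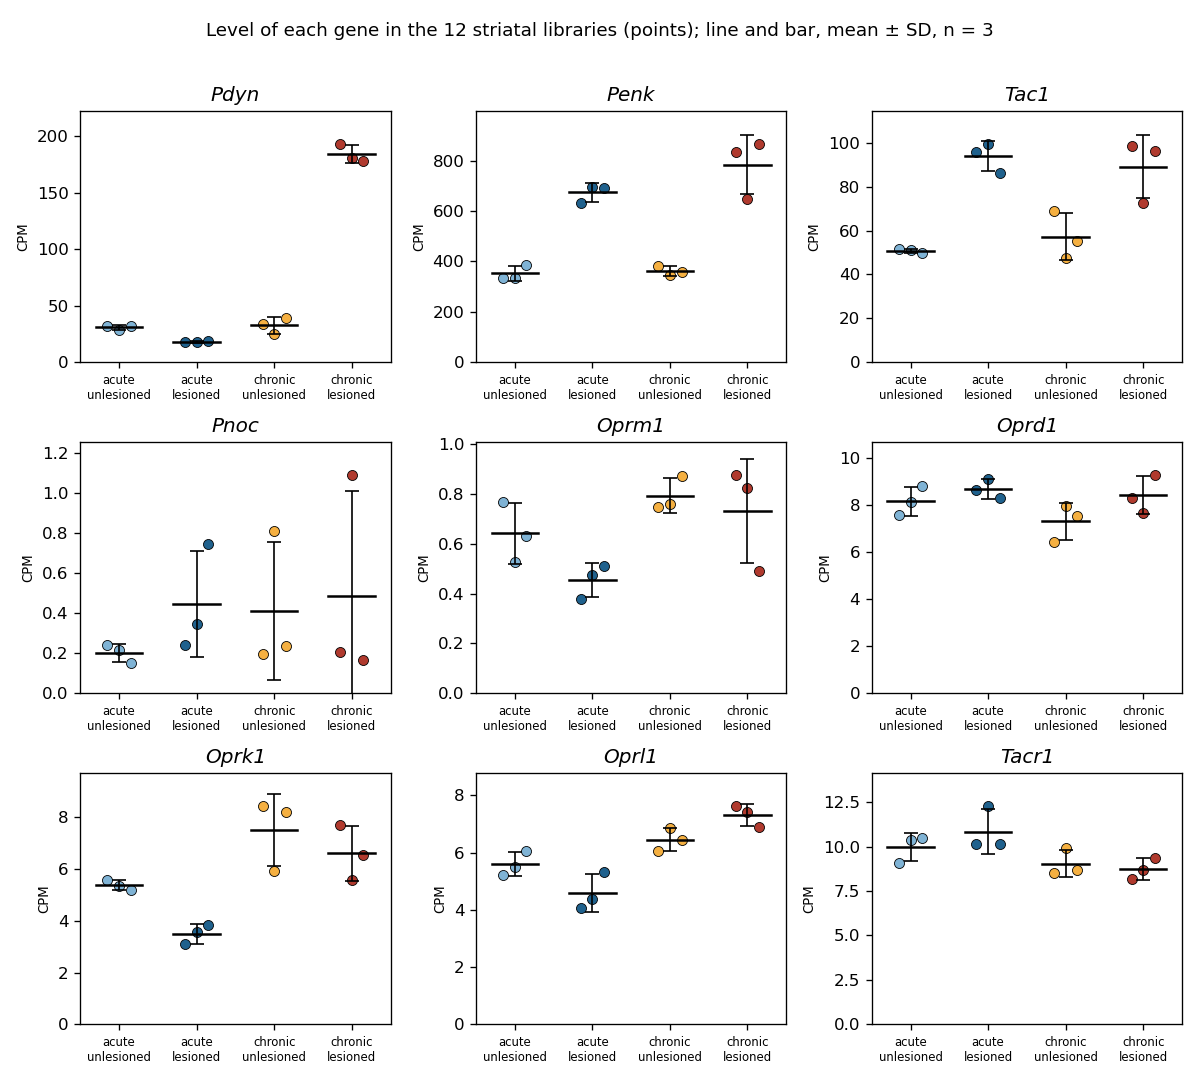
Level in CPM (vertical axes, linear, each from 0) of the 9 genes in the 12 libraries, by group. Points are libraries, and lines with bars are means ± SD of 3 libraries. *Pdyn* is at 178 to 194 CPM in the chronic lesioned striatum and at 39.3 CPM or less elsewhere, whereas *Penk* and *Tac1* are higher in both lesioned groups than in the matching unlesioned groups.

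All 6 transcripts listed for *Pdyn* rose in the chronic lesion comparison, by 2.44 to 3.31 on the log2 scale. After acute L-DOPA 5 of the 6 fell, and the remaining one was the clone AK136945, which was singled out after its values were seen. This clone runs from 129518360 to 129525580 on chromosome 2, with 6009 bases in 2 exons. At least 5823 of its bases lie outside the exons of the 4-exon form in the gene annotation, in the part of the locus that the mature mRNA lacks. It was at 2.03, 2.28 and 2.14 CPM in the acute unlesioned and at 2.40, 2.44 and 2.60 CPM in the acute lesioned striatum. It was at 2.36, 1.58 and 2.66 CPM in the chronic unlesioned and at 22.7, 20.1 and 22.9 CPM in the chronic lesioned striatum. The groups did not overlap in either lesion comparison, and the acute lesioned libraries lay above the unlesioned ones, the reverse of the reported *Pdyn* transcript. The fold changes of the clone were 0.21 (standard error 0.09, edgeR adjusted p = 0.153) after acute and 3.31 (standard error 0.16, edgeR adjusted p = 4.12e-07) after chronic L-DOPA, on the log2 scale.

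Relative to the reported *Pdyn* transcript, the level of the clone was 7.03% ± 0.85 in the acute unlesioned, 13.7% ± 0.085 in the acute lesioned, 6.72% ± 0.32 in the chronic unlesioned and 11.9% ± 0.89 in the chronic lesioned striatum (SD, n = 3). The lesioned libraries were above all unlesioned libraries in both treatments. Each of these comparisons had a two-sided exact permutation p = 0.10, the smallest that 3 against 3 allows, and an adjusted p of 0.145 over the 16 comparisons of ratios made here. The clone was chosen after it was seen not to fall where the reported transcript fell. Its higher percentage in the acute lesioned libraries follows from that choice, so the p of the acute comparison is no test of it. Reads in the exons that both transcripts share are counted for both, and the size of that share was not measured.

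**Figure D2:**
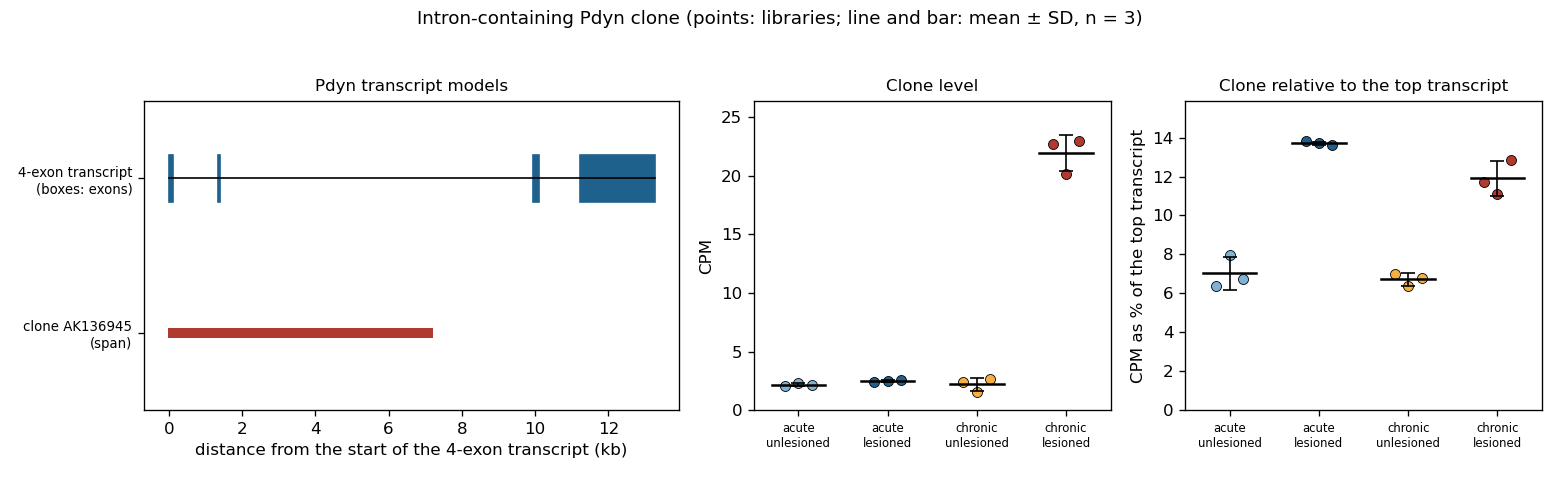
Left, the 4-exon *Pdyn* transcript of the gene annotation and the span of the clone AK136945, by distance in kb from the start of the 4-exon transcript. Middle and right, level of the clone in CPM and as a percentage of the reported *Pdyn* transcript; points are libraries, lines with bars are means ± SD (n = 3). The percentage is 13.6 to 13.8 in the acute lesioned and 6.36 to 7.99 in the acute unlesioned striatum.

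*Penk* (AK161272, chromosome 4 from 4060684 to 4065935, minus strand) was the most abundant of the 9 mRNAs and rose in the lesioned striatum after both treatments. The acute unlesioned libraries had 336, 335 and 387 CPM and the acute lesioned libraries 633, 698 and 693 CPM. The chronic unlesioned libraries had 383, 347 and 357 CPM and the chronic lesioned libraries 835, 650 and 869 CPM. Lesioned and unlesioned libraries did not overlap in either treatment. The log2 fold change was 0.94 (standard error 0.07, edgeR adjusted p = 5.81e-06) after acute and 1.12 (standard error 0.11, edgeR adjusted p = 8.9e-05) after chronic L-DOPA. The lesion effects differed by 0.18 on the log2 scale, with a 95% interval of -0.11 to 0.47 (edgeR adjusted p = 0.521). Within the lesioned striatum the change from acute to chronic was 0.22 (edgeR adjusted p = 0.170), and it was 0.34 with the chronic lesioned replicate 2 left out (edgeR adjusted p = 0.00702). All 4 *Penk* transcripts rose in both lesion comparisons.

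The locus overlaps A830012C17Rik on the opposite strand and a transcript assigned to Sdr39u1 on the same strand, and the study's text does not state whether strand entered the counting, so reads of these genes may be counted on *Penk*. The summed level of 5 markers of D2 spiny neurons, the cells that make enkephalin, was 185 to 224 CPM in the acute unlesioned and 247 to 255 CPM in the acute lesioned striatum, with 4 of 5 higher and 1 lower. After chronic L-DOPA it was 165 to 167 CPM in the unlesioned and 155 to 203 CPM in the lesioned striatum, with 1 higher and 1 lower. The summed levels of the chronic groups overlapped, while *Sp9* was at 4.69 to 5.92 CPM in the chronic unlesioned and 10.1 to 10.4 CPM in the chronic lesioned striatum, and *Gpr52* at 8.19 to 8.78 and 4.58 to 6.75 CPM. Their part in the *Penk* result was not tested.

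*Tac1* (NM_009311, chromosome 6 from 7505071 to 7512973, plus strand) also rose in the lesioned striatum after both treatments. It was at 51.6, 51.0 and 49.6 CPM in the acute unlesioned and at 95.7, 99.7 and 86.5 CPM in the acute lesioned striatum. It was at 68.9, 47.4 and 55.4 CPM in the chronic unlesioned and at 98.8, 72.5 and 96.4 CPM in the chronic lesioned striatum. The groups did not overlap, but after chronic L-DOPA the lowest lesioned library was close to the highest unlesioned one. The log2 fold change was 0.89 (standard error 0.07, edgeR adjusted p = 2.75e-06) after acute and 0.64 (standard error 0.15, edgeR adjusted p = 0.0188) after chronic L-DOPA. The chronic call was lost without replicate 3 of the unlesioned group (edgeR adjusted p = 0.0768), without replicate 1 of the lesioned group (0.0768) and without its replicate 3 (0.0833). Every same-numbered pair of chronic libraries was higher on the lesioned side, and the blocked fit gave 0.65 (edgeR adjusted p = 3.25e-05). The difference between the lesion effects was -0.25 on the log2 scale (95% interval -0.63 to 0.13, edgeR adjusted p = 0.487). It ran from -0.36 to -0.09 with a library left out. All 5 *Tac1* transcripts rose in both lesion comparisons. *Tac1* and *Pdyn*, both markers of the direct pathway, thus moved in opposite directions in the acute lesioned striatum, where the D1 markers fell.

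*Pnoc* (AK045893, chromosome 14 from 66019510 to 66044046) was near the lower end of what could be measured, with 18 to 118 counts per library, and was called in no comparison in the fits described so far. In the acute unlesioned libraries it was at 0.239, 0.216 and 0.150 CPM, and in the acute lesioned libraries at 0.243, 0.347 and 0.745 CPM. In the chronic unlesioned libraries it was at 0.193, 0.810 and 0.235 CPM, and in the chronic lesioned libraries at 0.205, 1.09 and 0.164 CPM. Replicate 2 of both chronic groups stood above its neighbours. *Pvalb*, the gene of parvalbumin in a class of interneurons, was also highest there, at 14.4 and 9.05 CPM against 1.94 to 6.81 CPM in the other libraries, and its part in the *Pnoc* values was not tested. The acute log2 fold change was 1.11 (95% interval 0.30 to 1.93, edgeR adjusted p = 0.0706), and a fit blocked by replicate number, which pairs the libraries of a treatment, gave 1.02 (edgeR adjusted p = 0.0467). DESeq2 gave 1.13 (adjusted p = 0.0317), and edgeR without a filter on low counts 1.10 (adjusted p = 0.0328). The value rested on single libraries, being 0.50 without replicate 3 of the acute lesioned group (edgeR adjusted p = 0.305) and 1.45 without its replicate 1 (edgeR adjusted p = 0.0124).

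The ratios between precursors were compared per kb of transcript. *Penk* exceeded *Pdyn* 22.6 ± 1.7 times in the acute unlesioned, 73.5 ± 3.2 times in the acute lesioned, 22.6 ± 4.9 times in the chronic unlesioned and 8.37 ± 1.3 times in the chronic lesioned striatum (SD, n = 3). The ratio of *Tac1* to *Pdyn* was 3.99 ± 0.28, 12.6 ± 1.4, 4.31 ± 0.81 and 1.17 ± 0.18 in the same order, and it was 0.963 in replicate 2 of the chronic lesioned group. Both lesioned ratios lay above all unlesioned ratios after acute and below them after chronic L-DOPA. The ratio of *Penk* to *Tac1* was 5.68 ± 0.59, 5.89 ± 0.59, 5.26 ± 0.72 and 7.19 ± 0.26 (SD, n = 3), and it was higher in the chronic lesioned than in all other libraries. Where groups did not overlap, the two-sided exact permutation p was 0.10, the smallest possible, with an adjusted p of 0.145, so that this test could not reach 0.05 for any ratio. Between the acute and chronic unlesioned libraries all 3 ratios overlapped, as did that of *Penk* to *Tac1* between the acute groups.

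**Figure D3:**
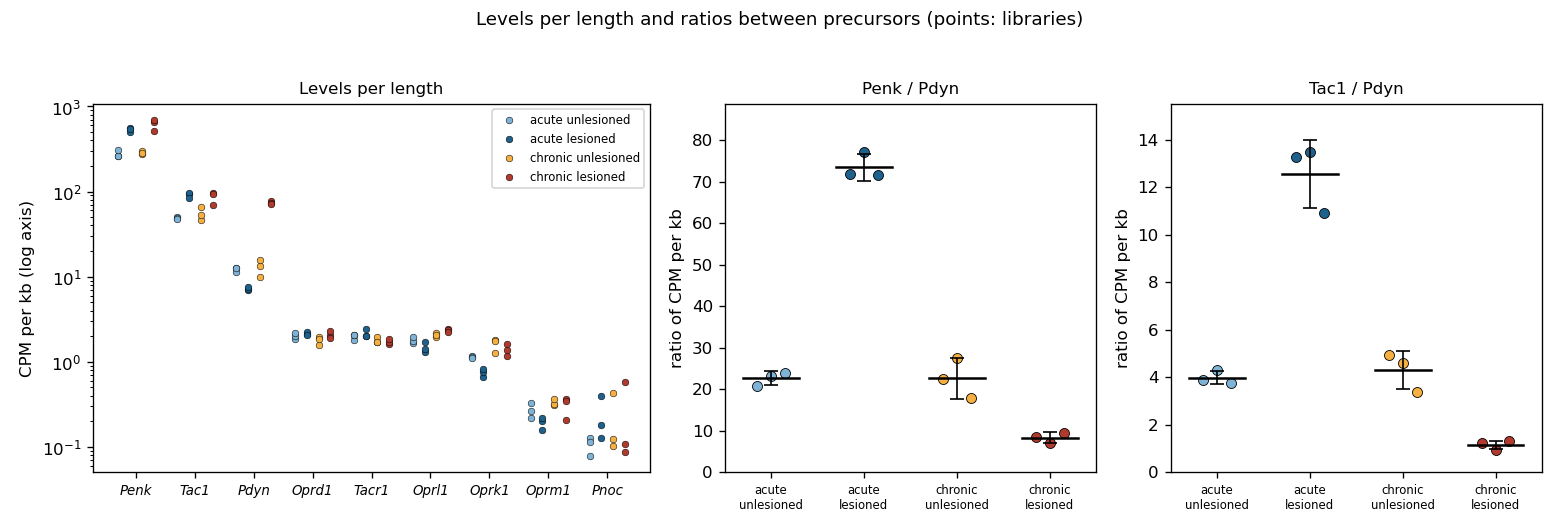
Left, level per kb of transcript (CPM per kb, log axis) of the 9 genes in each library, coloured by group. Middle and right, ratio of *Penk* and of *Tac1* to *Pdyn* per kb; points are libraries, lines with bars are means ± SD (n = 3). *Penk* was 71.5 to 77.2 times *Pdyn* in the acute lesioned and 7.05 to 9.59 times *Pdyn* in the chronic lesioned striatum.

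Of the receptors, *Oprk1* (NM_001204371, chromosome 1 from 5578574 to 5596214, plus strand), the gene of the kappa receptor for dynorphin, had the largest called changes. It fell in the acute lesion comparison, and lesioned libraries were higher with chronic than with acute treatment. The acute unlesioned libraries had 5.58, 5.35 and 5.21 CPM and the acute lesioned libraries 3.09, 3.55 and 3.86 CPM. The chronic unlesioned libraries had 8.44, 5.92 and 8.21 CPM and the chronic lesioned libraries 7.71, 5.57 and 6.54 CPM. The acute lesioned libraries were below every other library, while lesioned and unlesioned libraries overlapped after chronic L-DOPA. The log2 fold change was -0.62 (standard error 0.09, edgeR adjusted p = 0.000707) after acute and -0.19 (95% interval -0.52 to 0.14, edgeR adjusted p = 0.483) after chronic L-DOPA. With a library left out the chronic value ran from -0.33 to -0.07. Within the lesioned striatum *Oprk1* was higher by 0.92 on the log2 scale after chronic treatment (standard error 0.13, edgeR adjusted p = 0.000761). In the unlesioned striatum the same difference was 0.48 (standard error 0.12, edgeR adjusted p = 0.0554), without overlap of the libraries. It was 0.62 (edgeR adjusted p = 0.000598) without replicate 2 of the chronic unlesioned group, the library with choroid plexus markers. DESeq2 gave the unlesioned difference an adjusted p = 0.00458. The lesion effects of the 2 treatments differed by 0.43 (edgeR adjusted p = 0.237), and by 0.44 in the blocked fit (edgeR adjusted p = 0.0249). After acute L-DOPA 6 of the 7 *Oprk1* transcripts were called lower, and 7 of 7 were higher in the chronic than in the acute lesioned groups. These transcripts share reads and include the reported one, so their agreement adds little. In the unlesioned striatum 3 of the 7 were called higher with chronic treatment, over a range of 0.40 to 0.60 on the log2 scale.

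*Oprl1* (AK031926, chromosome 2 from 181449747 to 181455680, plus strand), the receptor gene for nociceptin, was at 5.22, 5.52 and 6.04 CPM in the acute unlesioned and at 4.07, 4.39 and 5.33 CPM in the acute lesioned striatum. It was at 6.04, 6.86 and 6.45 CPM in the chronic unlesioned and at 7.63, 7.42 and 6.88 CPM in the chronic lesioned striatum. The chronic lesioned libraries had the highest levels. Within the lesioned striatum *Oprl1* rose by 0.67 on the log2 scale from acute to chronic treatment (standard error 0.11, edgeR adjusted p = 0.00167), and 12 of its 13 transcripts rose with it. The lesion effects were -0.28 (edgeR adjusted p = 0.0862) after acute and 0.18 (edgeR adjusted p = 0.227) after chronic L-DOPA. The blocked fit gave an acute effect of -0.28 (edgeR adjusted p = 0.00724). The lesion effects of the 2 treatments differed by 0.46 (edgeR adjusted p = 0.0748), by 0.47 with the block (edgeR adjusted p = 0.0089) and by 0.46 in DESeq2 (adjusted p = 0.0362). The summed level of 6 oligodendrocyte markers, 2114 to 3496 CPM in the acute and 1162 to 2098 CPM in the chronic lesioned striatum, fell with 6 of 6 genes in the comparison in which *Oprk1* and *Oprl1* rose. In the same comparison 5 of 6 microglial markers fell (summed level 72.5 to 84.7 CPM against 46.0 to 56.3 CPM) and 3 of 5 astrocyte markers fell (191 to 236 CPM against 166 to 217 CPM), while 3 of 5 markers of D1 spiny neurons rose and 3 of 5 markers of D2 spiny neurons fell (their summed levels stand beside *Pdyn* and *Penk*). Between the acute unlesioned and lesioned libraries, where *Oprk1* fell, 3 of 6 microglial markers rose (64.2 to 66.5 CPM against 72.5 to 84.7 CPM), as did 2 of 5 astrocyte markers (155 to 171 CPM against 191 to 236 CPM) and 1 of 6 oligodendrocyte markers. Between the acute and chronic unlesioned libraries 3 of 6 microglial markers (64.2 to 66.5 CPM against 43.7 to 55.1 CPM) and 2 of 5 astrocyte markers fell (155 to 171 CPM against 131 to 147 CPM). The part of these cell types in the results was not tested.

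*Tacr1* (NM_009313, chromosome 6 from 82352469 to 82510098, plus strand), the gene of the substance P receptor, differed little between groups. The acute unlesioned libraries had 9.07, 10.4 and 10.5 CPM, the acute lesioned libraries 10.1, 12.3 and 10.1 CPM, the chronic unlesioned libraries 8.53, 9.92 and 8.68 CPM and the chronic lesioned libraries 8.15, 8.70 and 9.37 CPM. In the lesioned striatum the chronic libraries were all below the acute ones, by -0.31 on the log2 scale (standard error 0.10, edgeR adjusted p = 0.0395). This call was lost when any of 4 libraries was left out, with edgeR adjusted p-values of 0.0519 to 0.179 without replicates 1 or 2 of either lesioned group, and when a single transcript per gene was tested (edgeR adjusted p = 0.0515). Substance P receptors are known from striatal interneurons, and the summed level of 4 markers of cholinergic interneurons was 22.4 to 27.9 CPM in the acute and 17.6 to 20.2 CPM in the chronic lesioned striatum, with 3 of 4 lower. Their part in the *Tacr1* result was not tested.

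*Oprd1* (AK043873, chromosome 4 from 131666641 to 131700401, minus strand), the gene of the delta receptor for enkephalins, had means of 8.15 ± 0.61, 8.66 ± 0.41, 7.29 ± 0.78 and 8.40 ± 0.81 CPM (SD, n = 3) in the acute unlesioned, acute lesioned, chronic unlesioned and chronic lesioned striatum. The groups overlapped in each of the 4 comparisons. The 95% intervals of its lesion effects were -0.06 to 0.25 after acute and -0.03 to 0.44 after chronic L-DOPA on the log2 scale.

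*Oprm1* (ENSMUST00000105607, chromosome 10 from 3495928 to 3587948, minus strand), the gene of the mu receptor, was counted 41 to 135 times per library on its top transcript, so that moderate changes were hard to detect. It was at 0.769, 0.526 and 0.630 CPM in the acute unlesioned and at 0.379, 0.474 and 0.513 CPM in the acute lesioned striatum. It was at 0.746, 0.760 and 0.874 CPM in the chronic unlesioned and at 0.877, 0.823 and 0.492 CPM in the chronic lesioned striatum. The acute lesioned libraries were all below the acute unlesioned ones, with a log2 fold change of -0.51 (95% interval -0.92 to -0.10, edgeR adjusted p = 0.098). Summed over all *Oprm1* transcripts, this acute effect was -0.30 (edgeR adjusted p = 0.359). From acute to chronic treatment in the lesioned striatum the change was 0.68 (standard error 0.24, edgeR adjusted p = 0.0588), with overlap through replicate 3 of the chronic group, and without that library it was 0.91 (edgeR adjusted p = 0.0157). The sum over all *Oprm1* transcripts gave 0.31 (edgeR adjusted p = 0.369), against 0.69 without a filter on low counts (edgeR adjusted p = 0.0404) and 0.68 in the fit of all 12 libraries (edgeR adjusted p = 0.0346). Of 33 *Oprm1* transcripts tested in that comparison, 1 was called, and their log2 fold changes ran from 0.15 to 1.06. Gene models on the opposite strand overlap *Oprm1*, so its counts are uncertain in the same way as those of *Penk*.

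**Figure D4:**
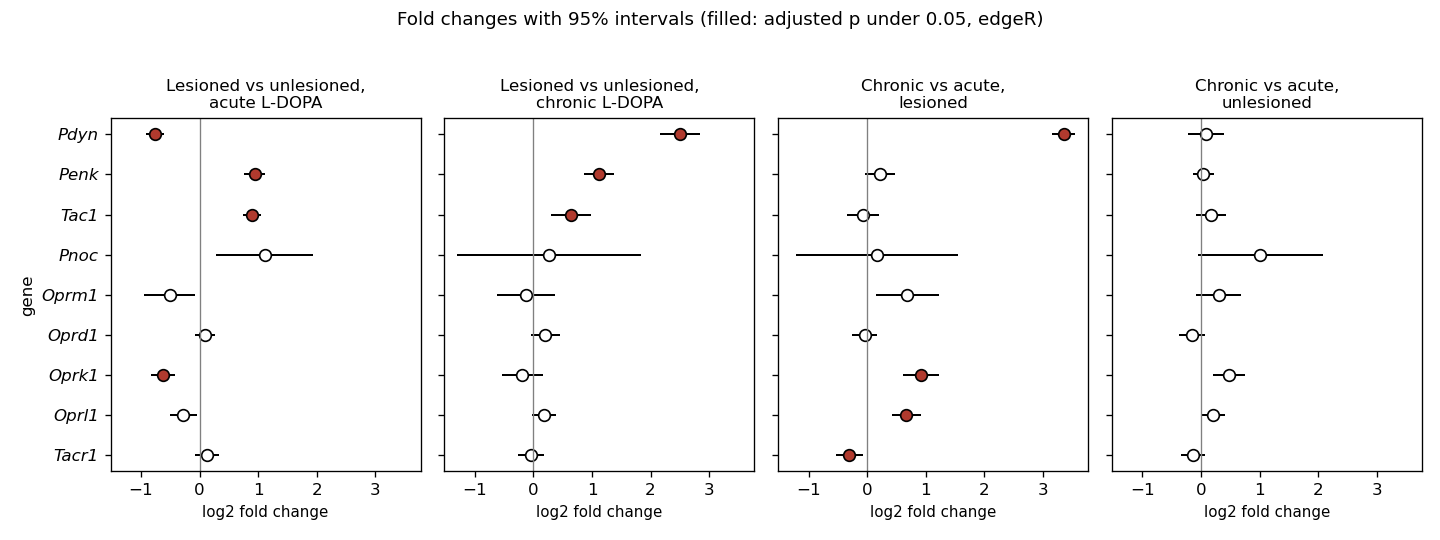
Log2 fold change (horizontal axes) of the 9 genes in 4 comparisons of groups, with 95% intervals from edgeR; filled points were called at an adjusted p under 0.05. *Pdyn* is at -0.76 in the acute and at 2.50 in the chronic lesion comparison, and 0 of 9 points are filled in the unlesioned striatum.

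Counted over the 9 genes, 4 were called between lesioned and unlesioned striatum after acute L-DOPA, *Penk* and *Tac1* higher and *Pdyn* and *Oprk1* lower. In that comparison 12.9% of 129674 transcripts were called, 6.85% higher and 6.02% lower. After chronic L-DOPA 3 precursors rose (*Pdyn*, *Penk* and *Tac1*), where 12.0% of 127063 transcripts were called, 7.71% higher and 4.33% lower. None of the 9 fell there, with 0 lower at an unadjusted p under 0.05 in edgeR and 0 in DESeq2. From acute to chronic treatment in the lesioned striatum 4 were called, *Pdyn*, *Oprk1* and *Oprl1* higher and *Tacr1* lower, where 23.3% of 127463 transcripts were called, 12.1% higher and 11.2% lower. The acute lesioned libraries enter both of the comparisons in which *Oprk1* was called. In the unlesioned striatum edgeR called 0 of 9, with 2 at an unadjusted p under 0.05 (*Oprk1* and *Oprl1*, both higher) and 1 called by DESeq2. In that comparison 2.61% of 129187 transcripts were called, 0.968% higher and 1.64% lower, and DESeq2 called 4.86%. The 3366 calls behind the share in the unlesioned striatum became 14377 when chronic unlesioned replicate 2 was left out and 66 when acute unlesioned replicate 2 was. The lesion effects of the 2 treatments differed for *Pdyn* alone among the 9 in edgeR, for 2 in DESeq2 and for 3 with the replicate block (*Pdyn*, *Oprk1* and *Oprl1*), where edgeR called 4.52% of 130867 transcripts, 3.22% higher and 1.30% lower, DESeq2 6.02% and the blocked fit 12.1%. The blocked fit of the acute lesion comparison, which added *Pnoc* and *Oprl1*, called 21.8% of transcripts. The median log2 fold change of the 9 genes was 0.09, 0.20, 0.22 and 0.17 in the 4 comparisons of groups, in the order given here, against 0.01, -0.02, -0.01 and 0.00 over all transcripts.

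Per kb of transcript the precursors *Penk*, *Tac1* and *Pdyn* ranked above all receptors in every group. *Penk* was at 278, 533, 286 and 620 CPM per kb in the acute unlesioned, acute lesioned, chronic unlesioned and chronic lesioned striatum. *Tac1* was at 49.1, 90.9, 55.4 and 86.3 CPM per kb, and *Pdyn* at 12.3, 7.26, 13.1 and 74.0 CPM per kb. The libraries of *Tac1* and *Pdyn* overlapped in the chronic lesioned striatum and were apart in the other 3 groups. The receptors *Oprd1*, *Tacr1* and *Oprl1* were at 1.48 to 2.36 CPM per kb and *Oprk1* at 0.744 to 1.60 CPM per kb. Neighbours in rank overlapped among *Oprd1*, *Tacr1* and *Oprl1* in the acute unlesioned group and among *Oprl1*, *Oprd1*, *Tacr1* and *Oprk1* in the chronic unlesioned group. In the lesioned groups *Tacr1* and *Oprd1* overlapped after acute treatment, and *Oprl1* with *Oprd1* and *Tacr1* with *Oprk1* after chronic treatment, so the order of these neighbours was not resolved. *Oprm1* (0.192 to 0.335 CPM per kb) and *Pnoc* (0.107 to 0.257 CPM per kb) were lowest, and they overlapped in every group but the acute unlesioned one.

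The genes whose levels followed the precursors most closely over the 12 libraries are given as a description, since all libraries share the same 4 groups. The measure was Pearson's r of log2(CPM + 0.5) among 12793 genes. For *Pdyn* they were *Ccny* (r = 0.98), LOC100503607 (0.98) and *Zswim4* (0.98). *Ccny*, the gene of cyclin Y, was at 25.8 ± 0.59 CPM in the acute unlesioned, 24.4 ± 0.59 in the acute lesioned, 27.0 ± 1.1 in the chronic unlesioned and 43.9 ± 2.4 in the chronic lesioned striatum (SD, n = 3). For *Penk* they were *Gadd45b* (0.99), a stress and activity response gene at 3.71, 26.1, 3.44 and 41.1 CPM in the same order of groups, *Arpc2* (0.99) and *Rpl21* (0.98), a ribosomal protein gene with near-identical copies whose counts are uncertain. For *Tac1* they were the nuclear noncoding RNA *Malat1* (0.96), the clone AK078839 (0.96) and *Plk2* (0.96), an activity-induced kinase gene at 51.8, 95.1, 53.7 and 103 CPM.

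Other ligands and receptors of these families were mostly low. Of 7 listed genes, *Tac4* and *Tacr2* did not pass the filter, and 1 of the 5 tested was called in each comparison, each time higher. Over all transcripts the shares called were 12.9% (acute), 12.0% (chronic), 23.3% (lesioned), 2.61% (unlesioned) and 4.52% (difference of lesion effects). *Tacr3*, the neurokinin B receptor gene, rose by 0.39 on the log2 scale in the acute lesioned striatum (edgeR adjusted p = 0.0271). *Ogfr*, the opioid growth factor receptor gene, was at 9.67 ± 0.73, 8.57 ± 0.52, 10.4 ± 0.39 and 13.5 ± 0.73 CPM (SD, n = 3) in the acute unlesioned, acute lesioned, chronic unlesioned and chronic lesioned striatum. It rose by 0.38 after chronic L-DOPA (edgeR adjusted p = 0.0108), by 0.66 from acute to chronic in the lesioned striatum (edgeR adjusted p = 0.000319), and its lesion effects differed by 0.55 (edgeR adjusted p = 0.00694). *Tac2*, the neurokinin B precursor gene, was higher by 1.55 in the chronic than in the acute unlesioned striatum (edgeR adjusted p = 0.0263), at levels of 0.176 ± 0.059 and 0.523 ± 0.16 CPM (SD, n = 3).

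Enzymes that cut precursors or break down peptides changed in both directions. The shares called over all transcripts were 12.9% (acute), 12.0% (chronic), 23.3% (lesioned), 2.61% (unlesioned) and 4.52% (difference of lesion effects). Of 11 genes, 2 rose and 3 fell in the acute lesioned striatum, with a median log2 fold change of -0.07. *Pcsk1*, the prohormone convertase gene, rose from 2.70 ± 0.40 to 5.57 ± 1.1 CPM after acute L-DOPA (log2 fold change 1.04, edgeR adjusted p = 0.000537) and from 2.31 ± 0.51 to 5.47 ± 0.51 CPM after chronic L-DOPA (1.24, edgeR adjusted p = 0.000452; SD, n = 3). *Cpe*, for carboxypeptidase E, rose by 0.45 after acute L-DOPA (edgeR adjusted p = 0.0014). *Pcsk2*, a second prohormone convertase gene, fell by 0.33 there (edgeR adjusted p = 0.00918), as did *Ace* by 0.52 (edgeR adjusted p = 0.0434). *Mme*, the gene of neprilysin, which degrades enkephalins and substance P, was at 17.3 ± 0.22, 12.8 ± 2.0, 16.3 ± 2.3 and 8.45 ± 1.9 CPM (SD, n = 3) in the 4 groups. It fell by 0.43 after acute (edgeR adjusted p = 0.00883) and by 0.95 after chronic L-DOPA (edgeR adjusted p = 0.00342). *Pcsk1* and *Mme* were the 2 genes of this list called after chronic L-DOPA, with a list median of 0.13. Within the lesioned striatum *Pcsk2* rose by 0.66 from acute to chronic treatment (edgeR adjusted p = 0.00364), *Dpp3* and *Ece1* rose and *Mme* fell, with a median of -0.03. In the unlesioned striatum *Scg5*, which encodes a chaperone of prohormone convertase, rose by 0.30 (edgeR adjusted p = 0.0487), with a median of 0.05. The lesion effects of the 2 treatments differed for 0 of the 11 in edgeR, with 3 higher and 2 lower at an unadjusted p under 0.05.

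Genes of receptor coupling and desensitization also changed in both directions. Beside them, the shares called over all transcripts were 12.9% (acute), 12.0% (chronic), 23.3% (lesioned), 2.61% (unlesioned) and 4.52% (difference of lesion effects). Of 19 genes, 3 rose (*Gnai3*, *Rgs4* and *Gnai2*) and 3 fell (*Rgs9*, *Gnaz* and *Kcnj9*) in the acute lesioned striatum, with a median log2 fold change of 0.00. *Gnai3*, which encodes an inhibitory G protein subunit, rose from 7.13 ± 0.63 to 16.5 ± 0.57 CPM after acute L-DOPA (log2 fold change 1.21, edgeR adjusted p = 4.84e-07) and from 7.07 ± 0.50 to 19.3 ± 1.8 CPM after chronic L-DOPA (1.45, edgeR adjusted p = 4.15e-06; SD, n = 3). *Rgs4*, which encodes an inhibitor of G protein signalling, rose by 0.44 (edgeR adjusted p = 0.005) and 0.77 (edgeR adjusted p = 0.00127). After chronic L-DOPA *Kcnj3* fell by 0.79 (edgeR adjusted p = 0.00912) and *Kcnj9* by 0.29 (edgeR adjusted p = 0.0423), both genes of potassium channels opened by G proteins, with a list median of -0.03. From acute to chronic treatment in the lesioned striatum *Kcnj9* rose and *Gnai1*, *Gnai2*, *Gnao1* and *Arrb2* fell, with a median of -0.05. In the unlesioned striatum edgeR called 0 of the 19, with 3 higher and 4 lower at an unadjusted p under 0.05, and the lesion effects differed for 0 of 19, with 1 higher and 3 lower at that level.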

How the data were processed

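RNA-seq of 12 striatal libraries was analysed from the deposited table. The authors used a TruSeq kit and a Genome Analyzer II, mapped reads to mm9 with Genomatix software and deposited unnormalized read counts per transcript, with a read counted on each transcript it overlaps. Strand and multiple mapping are not given in the sources used here. Their normalized expression signal was deposited beside the counts and served as a check (lowest r against counts per length 0.999). Neither the authors' own comparison tables, which hold DESeq p-values and log2 fold changes, nor the 36 per-sample columns inside them entered the analysis. Of 189660 transcripts, 296 name no gene (0.0485% of counts) and were left out.

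Fits used 6 libraries for a comparison of groups and all 12 for the difference of lesion effects. They were run in R 4.3.3 with edgeR 4.0.16 and limma 3.58.1, by filterByExpr, TMM, glmQLFit and glmQLFTest, and without a block, as the study's methods name none. A transcript was called at a Benjamini-Hochberg adjusted p under 0.05. Tables and plots used matplotlib 3.10.9, numpy 2.4.6 and pandas 2.3.3 under Python 3.11.15. The fitting code was run on simulated counts with known changes, drawn independently for each transcript and without pairs of libraries. Real transcripts share reads, so that run cannot vouch for the calls or shares given here. A search of the precursor proteins for peptide motifs was planned and not run. The genes named are the 9 members, genes of 3 pathway lists that were called or did not pass the filter, and the 3 genes most like each main precursor. Some genes of the cell type marker lists and genes that overlap a member are named as well. The members and all lists were chosen with earlier results of these data known.

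As a check of pairing, the departures from the group mean of libraries with the same number correlated at 0.478, 0.444 and 0.390 after acute and at 0.519, 0.566 and 0.153 after chronic L-DOPA, all above 0.1, so the numbers were taken to pair lesioned and unlesioned libraries. Libraries with different numbers correlated at -0.109 or below after acute and at up to 0.155 after chronic L-DOPA (replicate 1 with 3), which is above the value of replicate 3. The study's text describes the unlesioned side as the control within a mouse, while the series description counts 12 mice. Nothing else says which libraries share an animal, so p-values measure the spread between these libraries, which may be technical. Replicates were no copies of each other, with a chi-square per gene of 5.41 to 19.7. Alternatives were DESeq2's size factors, DESeq2 1.42.0, no filter, a threshold of 0.01, 1 transcript per gene, the sum over transcripts, all 12 libraries in a fit, the replicate block, upper-quartile scaling and each library left out.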

Additional observations from a re-analysis of the deposited data

Results flagged for a closer look

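The effect of the lesion on *Pdyn* differed between acute and chronic L-DOPA, with a difference of 3.26 on the log2 scale in a test of the difference itself (standard error 0.17, edgeR adjusted p = 1.05e-07, n = 3 per group). With each library left out in turn it stayed between 3.11 and 3.43.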

How the results depend on the processing

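Of 720 log2 fold changes of the 9 genes under the alternatives, 678 kept their direction and side of the threshold, 11 lost and 18 gained a call, and 13 reversed, 0 of them called in the main analysis. The calls of *Pdyn* and *Penk* in the lesion comparisons held in every alternative run. With a replicate block *Pnoc* was at -0.12 in the lesioned striatum from acute to chronic treatment, but across treatments the libraries share just a number (same-number r of -0.109, -0.163 and 0.249, against 0.364 or less for other numbers), so this value rests on no pairing. Leaving out 1 library gave chronic lesion effects of -1.15 to 1.19 (*Pnoc*), -0.09 to 0.02 (*Tacr1*) and -0.27 to 0.10 (*Oprm1*), lesioned chronic against acute changes of -1.26 to 0.78 (*Pnoc*), -0.15 to 0.06 (*Tac1*) and -0.12 to 0.02 (*Oprd1*), an unlesioned change of -0.07 to 0.24 (*Pdyn*) and a difference of lesion effects of -2.27 to 0.08 (*Pnoc*). In the unlesioned striatum 1 of the 9 was called by DESeq2 and 1 without a filter, against 0, and 0 to 2 with a library left out. The difference of lesion effects was called for 2 in DESeq2, 3 with the replicate block and 1 to 2 with a library left out, against 1. Summing over transcripts exchanged the ranks of 2 genes, *Pnoc* and *Oprm1*. Beside the acute lesion effects of *Pnoc* and *Oprl1* and the differences of lesion effects of *Oprk1* and *Oprl1*, which it added, the replicate block changed no call of the 9 genes. The cause was not tested.

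Counts of all transcripts called moved with the feature tested, where fewer were tested: a single transcript per gene gave 3135, 2663, 4915, 544 and 1053 in the acute, chronic, lesioned and unlesioned comparisons and for the difference, and sums gave 2643, 2311, 4310, 101 and 951, against 16684, 15295, 29698, 3366 and 5911. An adjusted p under 0.01 left 6707, 7079, 12545, 108 and 2474. The block gave 28237, 27505 and 15879 for acute, chronic and the difference, the fit of all 12 libraries 22946 for chronic, and DESeq2 and no filter 6278 and 5821 for the unlesioned comparison. With a library left out the counts were 9547 to 15328 (acute), 9137 to 14864 (chronic), 16025 to 36534 (lesioned), 66 to 14377 (unlesioned) and 3794 to 9536 (difference). The libraries that moved them by over 1.5 times were the acute unlesioned ones and acute lesioned replicate 2, replicates 1 and 3 of both chronic groups, acute lesioned replicates 1 and 2 and chronic lesioned replicate 1, all 6 of the unlesioned comparison, and for the difference acute unlesioned replicate 3, acute lesioned replicate 1 and chronic lesioned replicate 2, in this order of comparisons.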
